A study of Mus musculus with 23 samples.

Results

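The response of retinal microglia to optic nerve crush (ONC) in mice with a Spp1 deletion was measured by RNA-seq. The comparison took 4 libraries labelled Spp1 KO at day 7 after ONC (KO ONC) against 4 libraries labelled Spp1 KO from naïve retinas (KO naive), 8 of the 23 libraries of the series. By the labels and the study's methods, mice of both groups carried the Cx3cr1-GFP reporter (B6.129P2(Cg)-Cx3cr1tm1Litt/J), bred in as heterozygotes, on a global, homozygous Spp1 deletion (B6.129S6(Cg)-Spp1tm1Blh/J). By these labels the controls carried the deletion as well, and the comparison is of injury within libraries labelled as mutant. Retinas of several mice of one genotype and condition were pooled and live GFP+ single cells were sorted, both sexes are stated to have been used in equal numbers, and the crush was made behind the globe on one nerve. Ages were not given in the sources used here, and p-values measure the spread between pools of the series. Libraries of CX3CR1-GFP mice with intact Spp1, 4 naive (WT naive) and 3 at day 7 after ONC (WT ONC), served for the test of whether the response differed between genotypes. Libraries at 4 weeks after elevation of the eye pressure, 4 per genotype, entered the main fit only in its shared estimate of the spread. Of 35825 genes in the deposited table, 15892 reached a normalized count of 10 in at least 3 of the 8 KO libraries and were described.

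Microglia are the resident macrophages of the retina. In undamaged tissue they hold a surveying state marked by P2ry12, Tmem119 and Cx3cr1, and after neuronal injury they can pass into a disease-associated state, in which genes of lipid handling, lysosomes and phagocytosis (Cst7, Itgax, Lpl, Clec7a, Axl) are raised. SPP1 (osteopontin) is a secreted phosphoprotein that binds αV-containing integrins and CD44. Crushing the optic nerve cuts the axons of the retinal ganglion cells, many of which die over the following weeks.

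Spp1, at chr5:104435118-104441050 of GRCm38, was the first gene examined, because it checks the labels. Its normalized counts, in replicates 1 to 4, were 350.2, 53.1, 6.78 and 81.6 in KO naive and 4750.3, 6811, 15 and 6226 in KO ONC. Only KO ONC replicate 3 stayed in the range of the naive KO libraries. The WT naive libraries held 1228, 1518, 334 and 492 and the WT ONC libraries 14557, 16067 and 22906, so that 3 of the 4 KO ONC libraries lay above every WT naive library and below every WT ONC library. Against the label, Spp1 was thus called higher in KO ONC (log2 fold change 4.50 ± 1.58 (SE), adjusted p = 0.0387), a call that was lost in 6 of the 8 fits that left out 1 KO library. The table has 1 value per gene, so reads from the part of the gene that the targeting removed cannot be told apart from reads of the rest, and KO below stands for the libraries labelled Spp1 KO. Cx3cr1, the locus of the reporter, held 9417, 23090.1, 26283 and 24661 in KO naive and 46130.3, 33812, 12869 and 22396 in KO ONC, with overlapping groups (log2 fold change 0.42 ± 0.35 (SE), adjusted p = 0.382, -1.12 relative to the pan-myeloid genes described next).

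The 8 libraries held 25042635 to 29181636 reads assigned to genes, as recovered from the steps of the normalized counts. Pearson correlations of log2 values ran from 0.853 to 0.937 within KO naive (0.9 to 0.937 without replicate 3), from 0.915 to 0.939 within KO ONC, and from 0.813 to 0.908 between the groups. Microglial markers were strong in every library, as the P2ry12 and Tmem119 values below show.

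The naive KO libraries differed among themselves in how much microglial RNA they held. The summed level of 19 genes used by all myeloid cells (Itgam, Ptprc, Csf1r, Spi1, Laptm5 and others, the pan-myeloid list) made up 0.954, 1.17, 2.71 and 1.29% of the normalized total in KO naive replicates 1 to 4 and 2.88, 2.92, 2.9 and 2.5% in KO ONC. KO naive replicate 3 was close to the ONC libraries and replicates 1, 2 and 4 stood lower. Rod photoreceptor markers went the other way, at 3.35, 3.59, 1.26 and 3.98% in KO naive and 1.12, 0.774, 0.788 and 1.01% in KO ONC, again with replicate 3 near the ONC libraries. The exact permutation test over the 8 libraries gave p = 0.0571 for the pan-myeloid share and p = 0.0286 for the rod share (two-sided; 0.0286 is the smallest that 4 against 4 allows). WT naive libraries held 2.21 to 2.75% pan-myeloid RNA. Replicate 3 of KO naive also stood apart in Ddx3y, a Y-linked gene, with 1713, 1302, 28.1 and 1582 in KO naive and 1656, 1456, 1717 and 1369 in KO ONC. This library held almost no Y-linked RNA, which does not match a pool with an equal share of males. Low Y-linked RNA was not particular to it. The summed Y-linked share was 0.0007% in this library and 0.00927 to 0.0166% in KO ONC. It was 0.000413 to 0.0217% in WT naive and 0.000334 to 0.0125% in WT ONC (median 0.000622%). The sex of the mice in the libraries thus may differ between the groups of the genotype comparison, and its part was not tested. Pigment epithelium markers marked another library, with 0.335, 0.101, 0.00667 and 0.103% in KO naive and 0.00308, 0.00131, 0.0032 and 0.0856% in KO ONC. In these bulk samples, fewer cells of a type and less RNA per cell cannot be told apart. Results are given on the deposited scale, for most myeloid genes also relative to the mean log2 level of the pan-myeloid genes of the same library, and in places against KO naive replicate 3 alone.

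**Figure D1:**
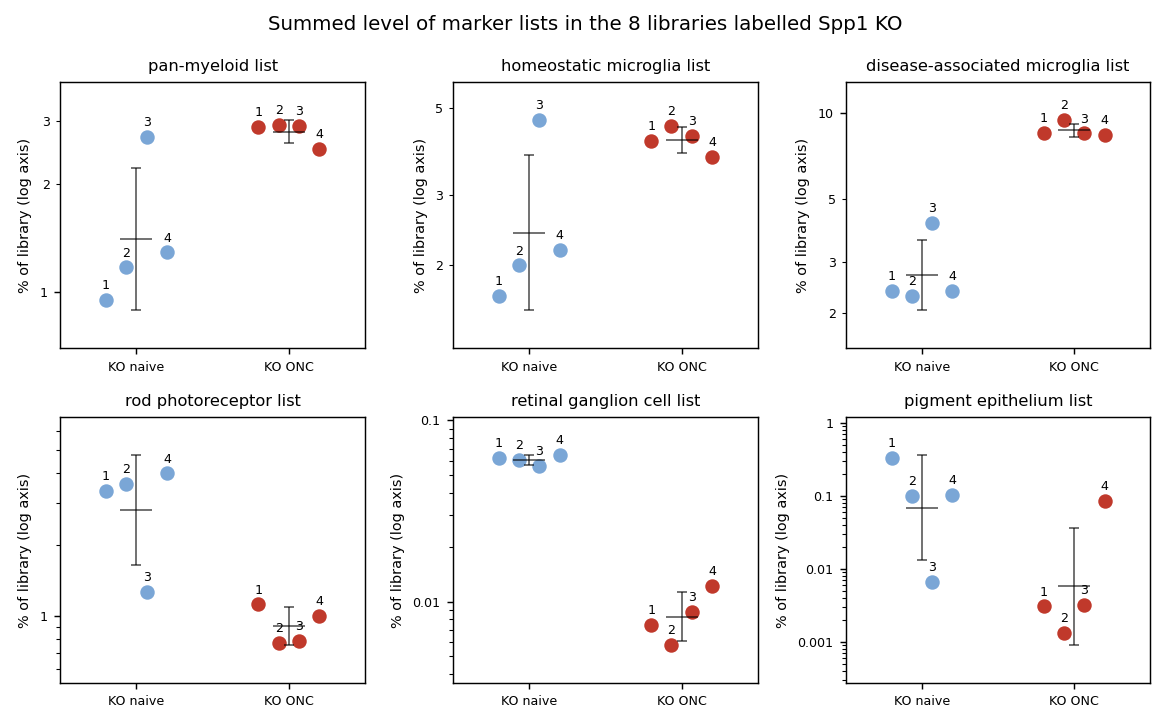
Summed normalized counts of 6 marker lists as a percentage of each library (log axis), for the 4 KO naive (blue) and 4 KO ONC (red) libraries; digits are replicate numbers, the bar is the mean of log2 values and the whiskers 1 SD. KO naive replicate 3 lies with the ONC libraries in the pan-myeloid and rod lists, but with the other naive libraries in the retinal ganglion cell list (0.056% against 0.00578 to 0.0122% in KO ONC).

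Of the 15892 genes, 4057 (25.5%) were called between KO ONC and KO naive, 2182 higher (13.7%) and 1875 lower (11.8%). A gene counted as called when its adjusted p in limma (Benjamini-Hochberg, all genes tested) was below 0.05 and its log2 fold change exceeded 0.58 in size. The 4 ONC libraries lay all above the 4 naive ones in 2274 genes (14.3%) and all below in 2199 (13.8%). The median log2 fold change over all genes was -0.10. Of the calls on this scale 53.8% were higher, and the groups of 3007 called genes did not overlap. With the mean log2 level of the rod genes as a covariate (the rod covariate) 492 genes (3.1%) were called, 67.5% of them higher. Relative to the pan-myeloid genes, which rose by 1.54 on the log2 scale, 152 genes (0.956%) were called higher and 11459 (72.1%) lower, and the median of all genes was -1.64. Relative medians and counts of lists are to be read against these values. With KO naive replicate 3 as the lone naive library, assumed to vary like the other groups, 86 genes were called, 82.6% of them higher.

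A set of 109 genes was called higher on the deposited scale, relative to the pan-myeloid genes, with the rod covariate and in a fit of the 8 libraries alone, with groups that did not overlap; all 109 were also called in each of the 8 fits without 1 KO library. Among them were the disease-associated genes Cst7, Itgax, Csf1, Lgals3bp, Clec7a, Lpl and Axl, the interferon-stimulated genes Ifi27l2a, Irf7, Zbp1, Oas1a and Isg15, the chemokines Ccl2, Ccl3, Ccl4 and Ccl5, the class I molecules H2-Q7, H2-Q6 and B2m, and the complement genes Cfb and C3.

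Most disease-associated genes rose. Of the list, 24 of its 31 measured members were called higher and 0 lower (median 2.01). Relative to the pan-myeloid genes the median was 0.47, with 13 called higher and 4 lower. Its members together took 2.38, 2.28, 4.13 and 2.39% of the KO naive libraries and 8.52, 9.44, 8.49 and 8.38% of the KO ONC libraries. Cst7, which encodes the cysteine protease inhibitor cystatin F (chr2:150570415-150578944), went from 149, 209.9, 291 and 159 normalized counts in KO naive to 6695, 9267, 6877 and 6201 in KO ONC. The lowest ONC library lay more than an order of magnitude above the highest naive one (log2 fold change 5.20 ± 0.27 (SE), adjusted p = 1.22e-10, 3.65 relative to the pan-myeloid genes and 4.62 against replicate 3 alone). Itgax, the integrin CD11c, held 145, 162, 538 and 159 in KO naive and 5143, 7331, 5620.1 and 5051 in KO ONC. Replicate 3 was the highest naive library and still far below every ONC library (log2 fold change 4.75 ± 0.45 (SE), adjusted p = 1.44e-06, relative value 3.21). Csf1, a ligand of the receptor on which microglia depend, moved from 389, 75.6, 450.4 and 131 to 3519, 3446, 3639 and 3271, with the 4 ONC libraries close together (log2 fold change 4.08 ± 0.45 (SE), adjusted p = 4.66e-06, relative value 2.54). Lgals3bp, a secreted galectin-binding protein, held 5758, 5448, 12479 and 6229.7 in KO naive and 66736, 94784, 70113 and 57271 in KO ONC (log2 fold change 3.34 ± 0.27 (SE), adjusted p = 1.14e-07, relative value 1.80). Members not called were Apoe (0.62), Gpnmb (-1.18), Fabp5 (1.0), Mamdc2 (-0.42), Cadm1 (0.13), Baiap2l2 (2.38) and Hif1a (0.20, all log2 fold changes), and Gpnmb, a transmembrane glycoprotein of lipid-laden macrophages, was called lower relative to the pan-myeloid genes (-2.72).

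Genes of the surveying state rose in part. On the deposited scale 14 of the 23 homeostatic genes were called higher and 0 lower (median 1.03), but the median was -0.51 relative to the pan-myeloid genes, with 0 called higher and 8 lower where 72.1% of all genes were lower, and -0.02 against replicate 3 alone. P2ry12, the purinergic receptor that guides microglial processes, and Tmem119, both named here as defining markers after their values were seen, show the split. P2ry12 held 17495, 18619.6, 61441 and 21109.5 in KO naive and 36138, 39741, 34870.4 and 30394 in KO ONC. The ONC libraries lay above replicates 1, 2 and 4 and below replicate 3 (log2 fold change 0.46 ± 0.31 (SE), adjusted p = 0.27, -1.08 relative to the pan-myeloid genes, adjusted p = 2.20e-05 in limma). Tmem119, a microglial membrane protein, held 20789, 24394, 76529 and 27575 in KO naive and 39619, 46726, 45443 and 38549 in KO ONC, the same order (0.40 on the deposited scale, -1.14 relative, adjusted p = 7.57e-06 in limma). P2ry13 (-1.58), Slc2a5 (-1.31), Ltc4s (-0.88), Tgfbr1 (-0.85) and Selplg (-0.69) were the other members called lower on the relative scale, beside Cx3cr1.

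Within the same list, Sparc, an extracellular matrix protein, held 31922, 23848, 60384 and 26479 in KO naive and 128549, 168494, 146692 and 109848 in KO ONC, without overlap (log2 fold change 2.04 ± 0.25 (SE), adjusted p = 1.27e-05, relative value 0.50). Fcrls, an Fc receptor-like scavenger molecule, was called higher as well (log2 fold change 1.84 ± 0.25 (SE), adjusted p = 3.62e-05, relative value 0.30). Olfml3 was at 11805, 14689, 49561 and 15249 in KO naive and 57319, 76705, 69658 and 49759 in KO ONC, with replicate 3 just below the lowest ONC library (log2 fold change 1.72 ± 0.36 (SE), adjusted p = 0.00162, relative value 0.17). Of the 18 genes of TGF-β signalling and microglial identity, 9 were called higher and 0 lower (median 0.86, -0.68 relative, with 7 called lower). Spi1 (PU.1, log2 fold change 2.04 ± 0.62 (SE), adjusted p = 0.018), Runx1 (1.64) and Irf8 (1.64) had relative values of 0.50, 0.10 and 0.10. Spi1 is itself among the pan-myeloid genes, so its relative value is not independent of that scale.

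**Figure D2:**
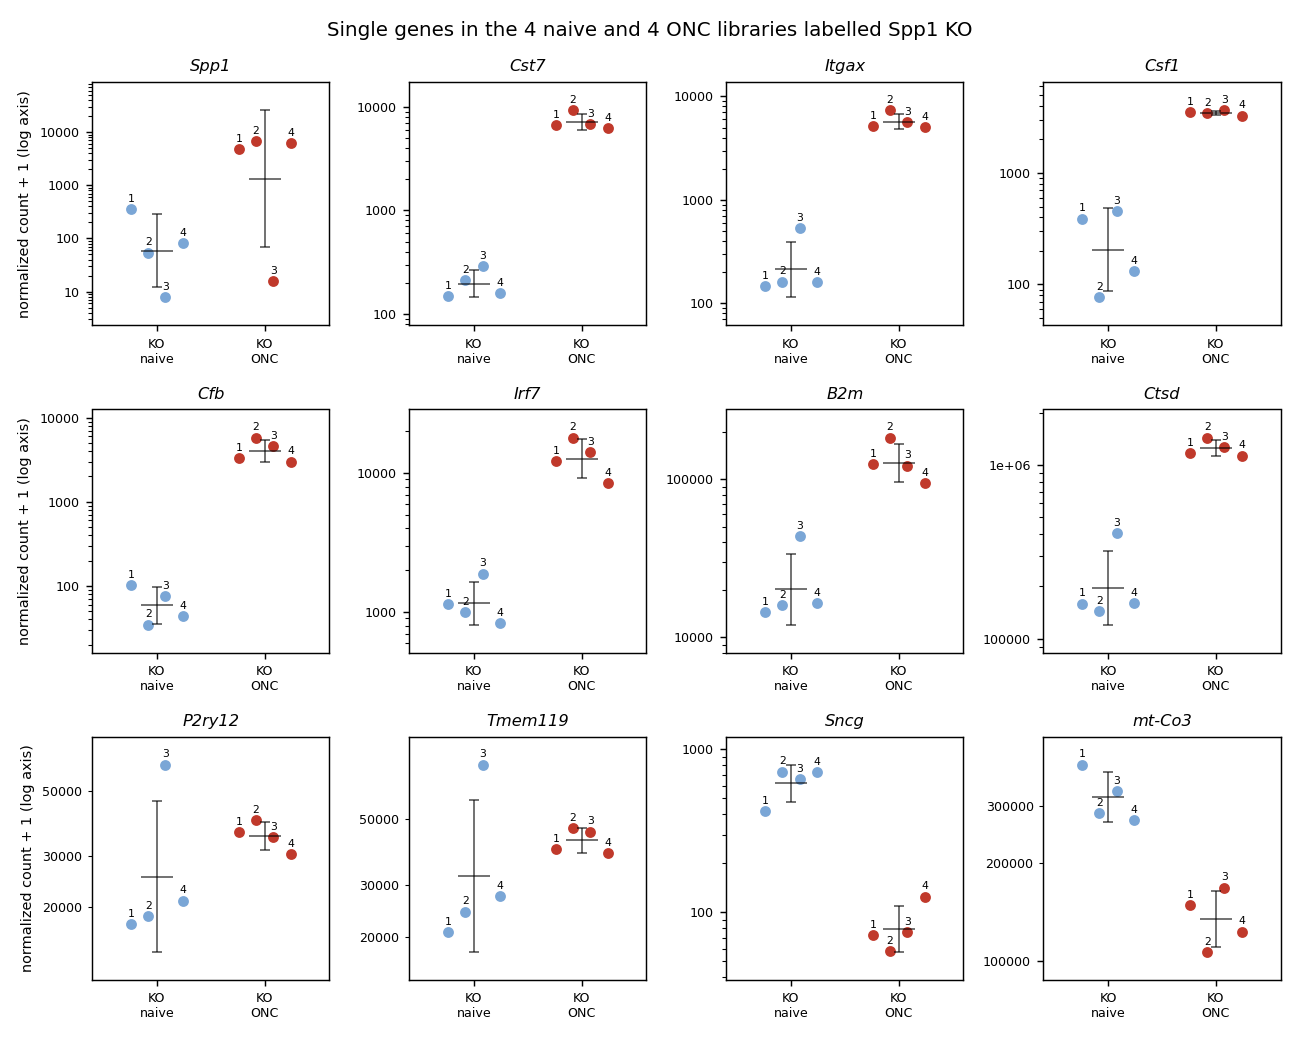
Normalized count + 1 (log axis) of 12 genes in the 4 KO naive (blue) and 4 KO ONC (red) libraries; digits are replicate numbers, the bar is the mean of log2 values and the whiskers 1 SD. In Cst7, Itgax, Csf1, Cfb, Irf7, B2m and Ctsd every ONC library lies above every naive one, in P2ry12 and Tmem119 KO naive replicate 3 exceeds all ONC libraries, in Sncg and mt-Co3 all ONC libraries are lower, and in Spp1 KO ONC replicate 3 stays at the naive level.

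Nearly all interferon-stimulated genes rose. Of the list, 43 of 44 measured members were called higher and 0 lower (median 2.30, 0.76 relative, with 19 called higher and 1, Ifnar1, lower), and the member not called was Cmpk2 (0.79). Their sum went from 0.199, 0.216, 0.355 and 0.228% in KO naive to 0.791, 1.03, 0.911 and 0.747% in KO ONC. Many such genes carry interferon-stimulated response elements, pairs of GAAA boxes bound by the STAT and IRF factors, near their start. In the RefSeq windows of 250 bases before to 50 after the start (GRCm38.p6), 19 of the 32 list members with a window held GAAANNGAAA on either strand (TTTCNNTTTC on the other strand), 59.4%, against 3.89% of the 11812 tested genes with a window and 3.44% of all windows. The share was 7.4% among genes called higher, which include members of the list, and 4.05% among genes called lower. As the motif is a known trait of such genes, its share in the list describes the list and is no test of the response to ONC. The 100 bases before the start are shown for the 4 called members with the largest rise whose motif copies lie in that stretch, with the copies in capitals. They are Oas1a (chr5:120907526-120907625, minus strand), Isg15 (chr4:156200819-156200918, minus strand), Gbp2 (chr3:142620563-142620662, plus strand) and Oas3 (chr5:120777660-120777759, minus strand), each 5′ to 3′ along the gene.
Oas1a: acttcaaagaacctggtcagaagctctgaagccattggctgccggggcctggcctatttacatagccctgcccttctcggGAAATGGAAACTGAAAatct
Isg15: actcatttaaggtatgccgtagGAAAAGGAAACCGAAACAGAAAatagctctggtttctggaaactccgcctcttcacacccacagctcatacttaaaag
Gbp2: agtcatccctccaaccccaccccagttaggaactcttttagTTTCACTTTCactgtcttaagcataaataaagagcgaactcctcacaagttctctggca
Oas3: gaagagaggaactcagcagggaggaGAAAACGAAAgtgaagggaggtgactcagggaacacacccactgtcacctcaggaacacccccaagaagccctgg

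Isg15, a ubiquitin-like modifier, shows overlapping copies of the motif above and held 126, 78, 186 and 137 in KO naive and 743, 1094, 1036 and 724 in KO ONC. All ONC libraries were higher (log2 fold change 2.80 ± 0.36 (SE), adjusted p = 2.07e-05, relative value 1.26). Irf7, the transcription factor that amplifies the interferon response, held 1141, 1000.4, 1889 and 829 in KO naive and 12196, 17993, 14069 and 8438 in KO ONC (log2 fold change 3.46 ± 0.27 (SE), adjusted p = 7.04e-08, relative value 1.92, and 2.75 against replicate 3 alone). Ifi27l2a had the largest change of the list, from 420.5, 503, 1733 and 603 to 10996, 14635, 14326 and 10699, with replicate 3 the highest naive library (log2 fold change 4.19 ± 0.44 (SE), adjusted p = 3.05e-06, relative value 2.65). Zbp1, a sensor of Z-form nucleic acid, went from 89, 180.1, 272 and 139 to 1793, 2295, 2192 and 1526 (log2 fold change 3.61 ± 0.35 (SE), adjusted p = 1.97e-06, relative value 2.07). Oas1a, which makes the oligoadenylates that activate RNase L, went from 496, 624, 1673 and 501 to 5136, 6722, 5629.8 and 4502 (log2 fold change 2.93 ± 0.38 (SE), adjusted p = 2.12e-05, relative value 1.39).

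Antigen presentation genes were counted by class. In the class I list 21 of 22 members were called higher and 0 lower (median 1.93, 0.39 relative, 6 called higher and 2 lower). B2m, the light chain of class I molecules, held 14393, 15975, 43461 and 16516 in KO naive and 124832, 183765, 121889.6 and 94182 in KO ONC, with replicate 3 between the groups (log2 fold change 2.66 ± 0.31 (SE), adjusted p = 7.58e-06, relative value 1.12). H2-Q7 (log2 fold change 3.46 ± 0.35 (SE), adjusted p = 2.42e-06), H2-Q6 (3.02) and H2-D1 (2.54) were also called higher, with relative values of 1.92, 1.48 and 0.99; these class I heavy chains are near-identical copies among which reads can be split. In class II, of 13 members 6 were called higher, where 13.7% of all genes were, and 0 lower (median 0.60, -0.94 relative, -0.39 with the rod covariate and -0.67 against replicate 3 alone). The difference between the classes was not tested. The peptide-binding chains and their chaperone did not pass the test: H2-Aa had a log2 fold change of 0.01, H2-Ab1 0.12, H2-Eb1 0.04 and Cd74 0.00. Cd74 held 23878, 30428, 74163 and 33000.3 in KO naive and 87318, 28686, 27478 and 25862 in KO ONC, and naive replicate 3 and ONC replicate 1 stood above the other libraries, as in the summed list (0.221, 0.305, 0.663 and 0.33% in KO naive, 0.632, 0.282, 0.289 and 0.296% in KO ONC). Members that rose were H2-Oa (log2 fold change 2.45 ± 0.28 (SE), adjusted p = 7.36e-06), which regulates peptide loading, the co-stimulator Cd86 (1.82), H2-Ob (1.5) and H2-DMa (1.39), with relative values of 0.91, 0.28, -0.04 and -0.15.

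Chemokines had the largest median of the 21 pathway lists. Of 19 members 13 were called higher and 0 lower (median 2.43, 0.89 relative, 10 called higher and 1, Ccr1, lower). Ccl5, a T cell attractant, held 177, 147, 526 and 173 in KO naive and 3769.9, 4568, 3248 and 2680.0 in KO ONC, without overlap (log2 fold change 3.98 ± 0.37 (SE), adjusted p = 1.25e-06, relative value 2.44). Ccl4, a chemokine that attracts monocytes and T cells, held 101, 161, 379 and 180.2 in KO naive and 1793, 3667, 2581 and 2038 in KO ONC (log2 fold change 3.72 ± 0.41 (SE), adjusted p = 3.96e-06, relative value 2.18). Cxcl13, the B cell attractant, held 58, 83.6, 25.2 and 58.6 in KO naive and 419, 11545, 925 and 561 in KO ONC, where replicate 2 exceeded the other ONC libraries by an order of magnitude (log2 fold change 4.58 ± 0.99 (SE), adjusted p = 0.00196, relative value 3.04). Cxcl9, an interferon-γ-induced chemokine, was at 2.45, 7.24, 0 and 7.65 in KO naive and 98.2, 275, 141 and 143 in KO ONC (log2 fold change 5.28 ± 1.42 (SE), adjusted p = 0.00903, relative value 3.74).

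Cytokine and inflammasome genes were mixed, with 13 of 26 called higher and 0 lower (median 1.25, -0.29 relative, 3 called higher and 8 lower). Il1rn, the antagonist of the interleukin 1 receptor, held 26.1, 17.7, 21.3 and 21.2 in KO naive and 475, 892, 433 and 398 in KO ONC (log2 fold change 4.54 ± 0.44 (SE), adjusted p = 1.75e-06, relative value 3.00). Both agonists were called higher, Il1b with a log2 fold change of 2.46 ± 0.42 and Il1a with 1.97 ± 0.32 (SE, relative values 0.92 and 0.42). Pycard, the inflammasome adaptor, was called higher (log2 fold change 2.56 ± 0.36 (SE), adjusted p = 4.84e-05, relative value 1.02). In the NF-κB list 13 of 19 members were called higher and 0 lower (median 0.95). Relative to the pan-myeloid genes the median was -0.60, with 0 called higher and 10 lower, where all genes had -1.64 and 72.1% were lower. Relb, of the non-canonical branch, held 346, 266, 175 and 75.6 in KO naive and 1455, 1362, 1015 and 629 in KO ONC, without overlap (log2 fold change 2.50 ± 0.56 (SE), adjusted p = 0.00238, relative value 0.96). Nfkb2 (1.63), Ikbke (2.88) and Nfkbiz (1.41) were the other members with the largest changes, at relative values of 0.09, 1.34 and -0.13. The call of Ikbke was lost in 5 of the 8 fits without 1 KO library and that of Nfkbiz in 4. Among immediate early genes 6 of 21 were called higher and 0 lower (median 0.59, -0.95 relative). Egr2 held 57.1, 32.2, 71.7 and 19.6 in KO naive and 449, 529.7, 704 and 734 in KO ONC (log2 fold change 3.85 ± 0.46 (SE), adjusted p = 8.46e-06, relative value 2.31). Egr1 (2.98), Atf3 (2.07) and Junb (1.21, -0.33 relative) were also called higher on the deposited scale, whereas Fos (-0.45) and Jun (1.14) were not called.

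Complement factor B was among the genes with the largest rise. Cfb, the protease of the alternative pathway convertase (chr17:34856374-34862518), held 102, 33.8, 75.6 and 42.5 in KO naive and 3272, 5803, 4575 and 2995 in KO ONC. No naive library came near an ONC library (log2 fold change 6.09 ± 0.41 (SE), adjusted p = 9.60e-09, 4.55 relative to the pan-myeloid genes and 5.71 against replicate 3 alone). C3, the component on which all pathways converge, held 501, 77.2, 219 and 212 in KO naive and 1022, 1868, 1495 and 1339.6 in KO ONC (log2 fold change 2.75 ± 0.38 (SE), adjusted p = 4.26e-05, relative value 1.22). C4b (log2 fold change 2.57 ± 0.56 (SE), adjusted p = 0.00196) and C1ra (2.21) were called higher as well, at relative values of 1.03 and 0.66. Cd59a, an inhibitor of the terminal complex, was called lower (log2 fold change -1.09 ± 0.32 (SE), adjusted p = 0.0145). In all, 11 of 19 measured complement genes were called higher and 1 lower (median 0.99, -0.55 relative, 2 called higher and 4 lower). Of 34 genes of phagocytosis and efferocytosis 19 were called higher and 1 lower (median 1.04, -0.50 relative). Axl, a receptor for phosphatidylserine-bound ligands, held 7006, 5846, 16096 and 7345 in KO naive and 55569, 59981, 56571 and 45178 in KO ONC (log2 fold change 2.69 ± 0.32 (SE), adjusted p = 9.85e-06, relative value 1.16). Cd300lf, another phosphatidylserine receptor, held 46.5, 137, 84.3 and 184 in KO naive and 832, 1042, 1245 and 918 in KO ONC (log2 fold change 3.31 ± 0.40 (SE), adjusted p = 9.85e-06, relative value 1.77). Fcgr4 (2.15), an IgG receptor, and Tyrobp (2.01), the adaptor of TREM2, had relative values of 0.61 and 0.47. Mfge8, a bridge between apoptotic cells and αV integrins, was the member called lower, at 12243, 9442, 5452 and 10092 in KO naive and 3894, 3219.6, 3386 and 4357 in KO ONC (log2 fold change -1.28 ± 0.23 (SE), adjusted p = 0.000517).

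Lysosomal genes rose on the deposited scale, with a list median close to the rise of the pan-myeloid genes. Of the list, 30 of 38 measured lysosomal genes were called higher and 0 lower (median 1.5). The relative median was -0.05, with 3 called higher (Ctsb, Ctsd and Grn) and 8 lower, where 72.1% of all genes were lower. With the rod covariate the median was 0.76, with 16 called higher and 0 lower, and against replicate 3 alone it was 0.73. The pan-myeloid list had 0.49 and 0.42 in these settings. Ctsd, an aspartic protease, held 159344, 143868, 406169 and 159414 in KO naive and 1169134, 1435597, 1269714 and 1131715 in KO ONC, and was among the most abundant transcripts (log2 fold change 2.67 ± 0.33 (SE), adjusted p = 1.27e-05, relative value 1.13). Ctsb, a cysteine protease (2.51, 0.97 relative), Grn, the progranulin gene (2.61, 1.07 relative), and Npc2, a cholesterol carrier (2.11, 0.57 relative), rose on the deposited scale without overlap of the groups. Lysosomal transcripts made up 3.13, 3.34, 6.88 and 3.6% in KO naive and 11.4, 12.8, 12.1 and 11.4% in KO ONC. The mean share in KO ONC was 2.82 times that in KO naive, against 1.83 times for the pan-myeloid list. Autophagosome genes were called about as often as all genes (25.5%). Of 38 core genes 9 were called higher and 1, Gabarapl1 (-0.94), lower (median 0.14). On the relative scale the median was -1.40, with 0 called higher and 28 lower, where all genes had -1.64 and 72.1% were lower. Gabarap (1.44, -0.10 relative), Vamp8 (1.43, -0.11), Snap29 (1.08, -0.46) and Becn1 (0.98, -0.56) were the members called higher with the largest changes, and in each the sign turned on the relative scale.

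Receptors that pick cargo for selective autophagy, a list built around genes that the study names from these libraries and so not independent of them, held 2 of 20 members called higher, 1 lower, where 25.5% of all genes were called, and had a median of -0.21 (-1.75 relative with 19 called lower, where all genes had -1.64 and 72.1%, 0.12 with the rod covariate and 0.01 against replicate 3 alone). Ubqln2, an adaptor between ubiquitin and the proteasome, was the member called lower, at 238, 333, 159 and 364 in KO naive and 101, 58.7, 73.9 and 92.6 in KO ONC, with no overlap (log2 fold change -1.69 ± 0.44 (SE), adjusted p = 0.00757). With the rod covariate Ubqln2 was not called (log2 fold change -0.94), and against replicate 3 alone its log2 fold change was -0.99. Optn held 2748, 2096, 461 and 513 in KO naive and 1049, 878, 969 and 749.9 in KO ONC. Its naive replicates 1 and 2 lay above and replicates 3 and 4 below the ONC libraries, and it did not pass the test (log2 fold change -0.26 ± 0.57 (SE), adjusted p = 0.761). Htt (log2 fold change -0.50 ± 0.35 (SE), adjusted p = 0.289), Wdfy3 (log2 fold change -0.27 ± 0.22 (SE), adjusted p = 0.379) and Sqstm1 (log2 fold change 0.24 ± 0.14 (SE), adjusted p = 0.212) did not pass either, and Sqstm1, which encodes p62, was at 11965, 10108, 13432 and 11004 in KO naive and 13583, 13707, 14070.1 and 13299 in KO ONC, a ratio close to 1. Relative to the pan-myeloid genes these 4 had values of -1.80, -2.04, -1.81 and -1.30, all called lower on that scale as most genes were. Retreg1, a receptor for the endoplasmic reticulum (1.0, -0.54 relative), and Ncoa4, the ferritin receptor (0.60, -0.94 relative), were the members called higher. The Ncoa4 groups overlapped and its call was lost in 5 of the 8 fits without 1 KO library.

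Metabolic genes moved in both directions. In the cholesterol list 9 of 33 were called higher and 11 lower (median -0.41, -1.95 relative). The 11 that fell belong to synthesis and its control (Hmgcs1, Sqle, Idi1, Fdft1, Fdps, Cyp51, Msmo1, Sc5d and Srebf2 among them), with log2 fold changes from -1.36 to -0.59. The 9 that rose act in lipid uptake, storage, hydrolysis, modification or export (Lpl, Ch25h, Npc2, Abca1, Plin2, Soat1, Abcg1, Lipa and Mylip). Against replicate 3 alone the list median was -0.30. Lpl, the lipoprotein lipase, held 1528, 1328, 1627 and 1365 in KO naive and 9404, 11593, 10908 and 8201 in KO ONC (log2 fold change 2.77 ± 0.21 (SE), adjusted p = 5.87e-08, relative value 1.23, and 2.61 against replicate 3 alone). In Lpl the 4 naive libraries, replicate 3 included, were within a narrow range. Ch25h, cholesterol 25-hydroxylase, held 199, 51.5, 371 and 153 in KO naive and 696, 1553, 1223 and 956 in KO ONC (log2 fold change 2.76 ± 0.49 (SE), adjusted p = 0.000411, relative value 1.22). Abca1, the exporter, was called higher (log2 fold change 1.73 ± 0.26 (SE), adjusted p = 9.62e-05, relative value 0.19). Of 23 glycolysis genes 4 were called higher and 10 lower (median -0.47, -2.01 relative), with the lactate transporter Slc16a1 (-1.32), the aldolase of astroglia Aldoc (-1.30) and the neuronal enolase Eno2 (-1.24) falling furthest, while the myeloid hexokinase Hk3 rose (1.22, -0.32 relative). Transcripts of the mitochondrial genome fell: 12 of 13 were called lower and 0 higher (median -1.07, -2.61 relative, -1.18 with the rod covariate and -1.2 against replicate 3 alone). They made up 7.35, 5.43, 5.38 and 5.07% in KO naive and 2.24, 1.83, 2.62 and 2.25% in KO ONC, with every ONC library lower, and the naive replicate 3 within the naive range. mt-Co3, a subunit of cytochrome c oxidase, held 400426, 285115, 331400.3 and 271187 in KO naive and 148244, 106662, 167778 and 122959 in KO ONC (log2 fold change -1.24 ± 0.27 (SE), adjusted p = 0.00174), and mt-Nd3, of complex I, had the largest fall (log2 fold change -1.61 ± 0.27 (SE), adjusted p = 0.00024). In WT the median of these genes was -0.32.

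Cell division genes rose on the deposited scale. Of 41 measured members 27 were called higher and 0 lower (median 1.83). Relative to the pan-myeloid genes the median was 0.29, with 5 called higher and 10 lower, where 72.1% of all genes were lower. With the rod covariate the median was 1.22, with 2 called higher, and against replicate 3 alone it was 1.01. The 5 called higher on the relative scale, Cdk1, Ccnb2, Plk1, Ube2c and Cdc20, act in mitosis. Those called lower there, as most genes were, include the replication genes Mcm2, Mcm4, Mcm7, Pcna and Rrm1. This difference was not tested. Ccnb2, cyclin B2, held 62, 59.5, 79.4 and 18.7 in KO naive and 646, 360, 683 and 657 in KO ONC (log2 fold change 3.52 ± 0.59 (SE), adjusted p = 0.000223, relative value 1.98). Ube2c, of the anaphase-promoting complex pathway, held 35.1, 44.2, 92 and 11.9 in KO naive and 330.4, 349, 279 and 347 in KO ONC (log2 fold change 3.12 ± 0.53 (SE), adjusted p = 0.000253, relative value 1.58). Bub1 (3.97 ± 1.32) and Kif20a (2.89 ± 0.81, SE) were also called higher, at relative values of 2.43 and 1.35, Bub1 losing its call in 4 of the 8 fits without 1 KO library.

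Of the SPP1 receptor genes, 4 of 10 were called higher and 0 lower (median 0.74, -0.80 relative). On the relative scale 7 were called lower, where 72.1% of all genes were. Itgav, the αV subunit, held 1955, 864, 1928 and 1195 in KO naive and 2269.8, 834, 1059.7 and 1517 in KO ONC, with overlapping groups (log2 fold change -0.09 ± 0.32 (SE), adjusted p = 0.86, relative value -1.63). Its partners Itgb1 (log2 fold change 1.58 ± 0.48 (SE), adjusted p = 0.0177, 0.04 relative) and Itgb5 (1.47, -0.07 relative) were called higher. Cd44 held 992, 493, 1356 and 446 in KO naive and 1456, 1268, 1292 and 1179 in KO ONC, with replicate 3 above 3 of the ONC libraries (log2 fold change 0.81 ± 0.29 (SE), adjusted p = 0.0447, -0.73 relative and -0.07 against replicate 3 alone); its call was lost in 6 of the 8 fits without 1 library. Itga5 was also called higher (0.89, -0.65 relative). Among growth factors, 4 of 13 called higher and 3 lower (median 0.49, -1.05 relative). Bdnf, a neurotrophin also made by retinal neurons, held 251, 247, 108 and 269 in KO naive and 29.9, 10.9, 60.01 and 89.8 in KO ONC (log2 fold change -2.45 ± 0.72 (SE), adjusted p = 0.0155), and Vegfa (-1.5 ± 0.49) fell, with a call lost in 4 of those fits, while Osm (1.41 ± 0.46, SE, -0.13 relative) rose on the deposited scale, with overlapping groups and a call lost in 6 of those fits. Of the inflammatory genes that the study names from these libraries, a choice that is not independent of them, Ccl5, Relb and Syk (1.42, -0.12 relative) were called higher, and Ptgs2 (log2 fold change 1.56 ± 1.11 (SE), adjusted p = 0.306) and Pla2g6 (log2 fold change -0.41 ± 0.25 (SE), adjusted p = 0.238) did not pass the test. Ptgs2 was low in all libraries, at 21.2, 0, 21.3 and 1.7 in KO naive and 22.8, 21.8, 19.3 and 8.33 in KO ONC.

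**Figure D3:**
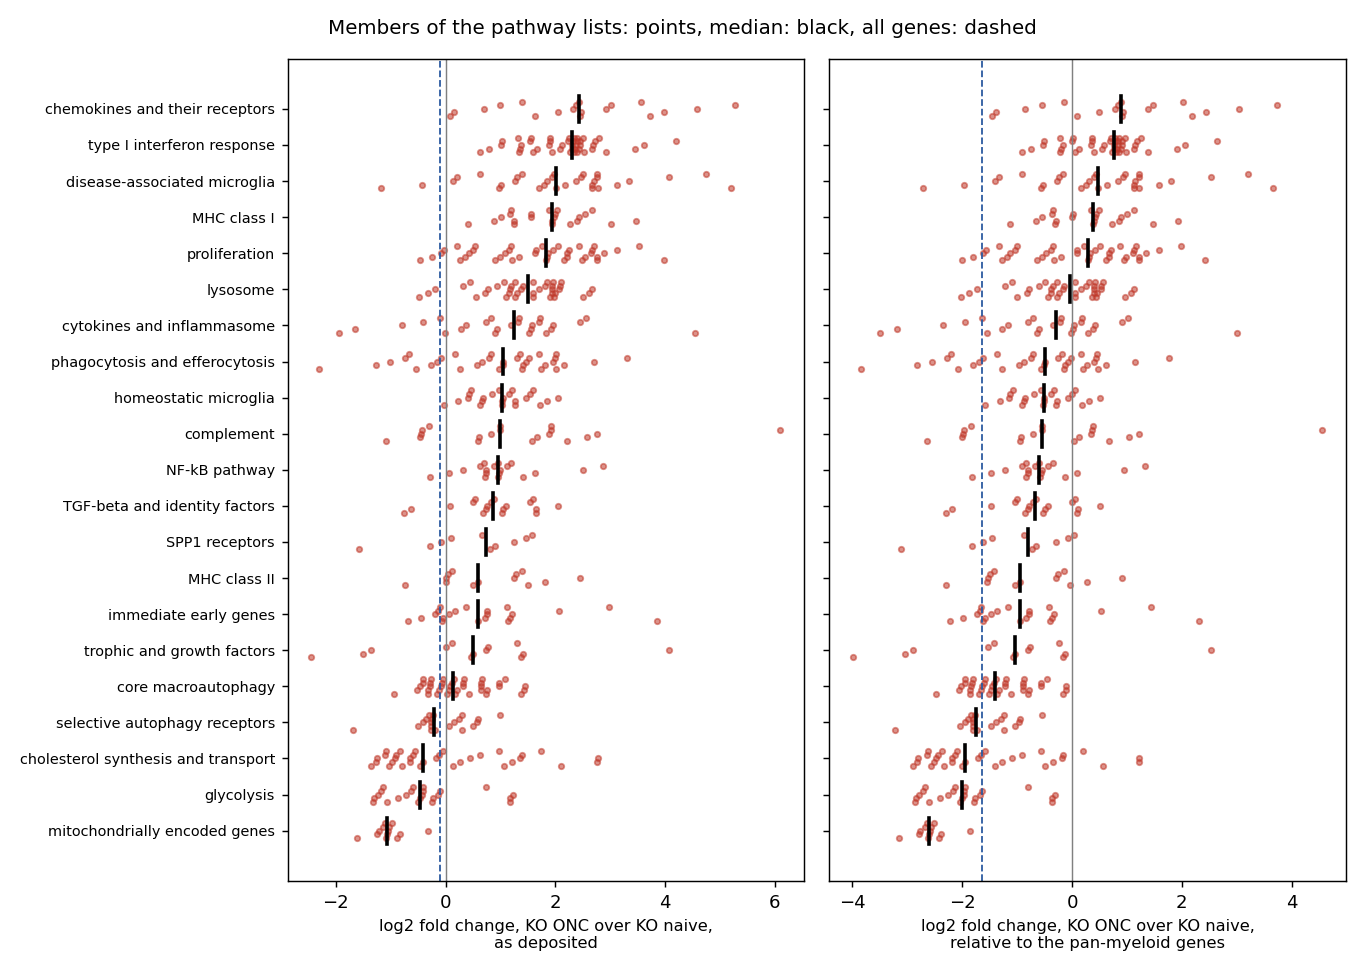
Log2 fold change of KO ONC over KO naive for every measured member (points) of the 21 pathway lists, on the deposited scale (left) and relative to the pan-myeloid genes (right); the black bar is the list median and the dashed line the median of all genes. Medians of 17 lists are above 0 on the left, and on the right those of 5 lists (chemokines, interferon response, disease-associated microglia, MHC class I and proliferation) remain so while 12 turn to the other sign.

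Among called genes with groups that did not overlap and a mean of at least 100 in the higher group, the 12 with the largest rises (pseudogenes and unnamed models aside) were Saa3, Olfr110, Cfb, Gcm2, Klrb1b, Adgrg5, Cxcl9, Cst7, Ecel1, Itgax, Cd300lb and Ly6i. Saa3, an acute-phase apolipoprotein made by macrophages, held 0, 0, 3.88 and 3.4 in KO naive and 225, 259, 518 and 92.6 in KO ONC (log2 fold change 6.75 ± 1.36 (SE), adjusted p = 0.00115). Klrb1b, a C-type lectin of the natural killer receptor cluster, held 0.816, 7.24, 69.8 and 6.8 in KO naive and 393, 452, 485 and 428 in KO ONC (log2 fold change 5.53 ± 1.01 (SE), adjusted p = 0.000489). Replicate 3 was the highest naive library in Klrb1b, as in Gcm2, Itgax and Ly6i. Olfr110, an olfactory receptor gene, was close to 0 in the naive libraries (4.08, 0, 0 and 9.35) and held 144, 228, 204 and 170.3 in KO ONC. Ecel1, an endopeptidase that injured neurons induce, held 4.9, 21.7, 0 and 4.25 in KO naive and 360.3, 71.8, 285 and 160.2 in KO ONC (log2 fold change 5.18 ± 1.06 (SE), adjusted p = 0.00125). Fold changes of genes this low in the naive group are on the log2(normalized count + 1) scale and depend on the added 1. All 12 were called higher relative to the pan-myeloid genes, at 3.18 to 5.21, and all 12 were called in each of the 8 fits without 1 KO library. With the rod covariate Olfr110, Gcm2, Klrb1b, Adgrg5, Cxcl9 and Cd300lb were not called. Against replicate 3 alone their log2 fold changes, like those of the others, were positive, with 2.135 for Ly6i, 2.30 for Gcm2, 2.41 for Cd300lb and 2.63 for Klrb1b the smallest. Rps12l1, a processed pseudogene named after its values were seen, was listed at 0 in all 4 KO naive libraries and at 661, 967, 873 and 509 in KO ONC, and at 0 in the WT naive and WT ONC libraries. Rps12-ps3 went the other way, from 198, 251, 563 and 431 in KO naive to 0 in all 4 KO ONC libraries, with 612, 617, 750 and 531 in WT naive and 2339, 288 and 643 in WT ONC. Both are near-identical copies of a ribosomal protein gene among which the counting can move reads, and their values are uncertain.

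Markers of retinal ganglion cells, whose axons the crush cuts, fell in the sorted samples. Retinal ganglion cell markers summed to 0.0619, 0.0603, 0.056 and 0.0644% of the KO naive and 0.00748, 0.00578, 0.00879 and 0.0122% of the KO ONC libraries, 7.09 times more in naive than in ONC (exact permutation p = 0.0286, two-sided). Replicate 3, low in rod RNA, was not low here. Of the list, 7 of the 9 measured markers were called lower and 0 higher (median -2.74, -2.50 against replicate 3 alone). With the rod covariate the median was -1.56, with 2 called lower and 0 higher. Sncg, γ-synuclein, held 419, 729, 657 and 726 in KO naive and 71.8, 56.6, 75 and 124 in KO ONC (log2 fold change -2.96 ± 0.30 (SE), adjusted p = 2.26e-06, -3.05 against replicate 3 alone). Thy1 (log2 fold change -3.08 ± 0.77 (SE), adjusted p = 0.00528), Pou4f1 (-3.24), Nefl (-2.74) and Slc17a6 (-2.88), the vesicular glutamate transporter, fell too (Pou4f1 and Slc17a6 lost their calls in 5 and 6 of the 8 fits without 1 KO library), while Rbpms (-0.06) and Nefh (-1.32) did not pass the test. In WT the median of the list was -2.81.

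Markers of other retinal cell types were lower as well, beside a lower rod share. Of 15 rod genes 13 were called lower (median -1.28, -0.25 against replicate 3 alone), of 11 cone genes 9 (median -1.82; -0.97), of 12 bipolar genes 9 (median -1.43; -0.80), of 10 amacrine genes 7 (median -1.2; -1.05) and of 11 Müller glia genes 6 (median -0.62; -0.47). Opn1sw, the short-wave cone opsin, held 16444, 17539, 10589.8 and 19555 in KO naive and 4589, 2586, 1399 and 6659.8 in KO ONC, without overlap (log2 fold change -2.27 ± 0.46 (SE), adjusted p = 0.00116). Calb2, calretinin, of amacrine and ganglion cells, held 2159, 3214, 2162 and 3908 in KO naive and 814, 310, 626 and 1008 in KO ONC (log2 fold change -2.13 ± 0.32 (SE), adjusted p = 9.62e-05, -1.77 against replicate 3 alone). Aqp4, the water channel of Müller glia, held 3839, 1773, 1909 and 1939 in KO naive and 489.6, 412, 303 and 942 in KO ONC (log2 fold change -2.19 ± 0.32 (SE), adjusted p = 7.67e-05), although the summed Müller list, which Apoe leads, was 1.35, 0.993, 1.23 and 1.06% and 1.25, 0.995, 0.859 and 1.12%. Gngt2, listed as a cone gene, was called higher (1.02). Pigment epithelium genes such as Rpe65 (3128, 1138, 112 and 1034 in KO naive and 0, 1.09, 0 and 853 in KO ONC) were low in naive replicate 3 and present in ONC replicate 4, so that the groups overlapped. Of 8 endothelial and 6 pericyte genes 3 and 3 were called lower. The part of these cell types in the other falls was not tested.

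The 12 largest falls by the same rule were Rps12-ps3, Trarg1, Rbpms2, Fras1, Kcnj8, Pcdha8, Mal, Epb41l4b, Ano3, Ptges, Rab9b and Boc. Rps12-ps3 passed the rule because it is annotated as protein-coding, and its values are uncertain, as stated above. Rbpms2, an RNA-binding protein of ganglion cells, held 352, 294, 229 and 298 in KO naive and 32.3, 0, 15 and 75.9 in KO ONC (log2 fold change -4.35 ± 0.92 (SE), adjusted p = 0.00161). Trarg1, a regulator of glucose transporter traffic, held 185, 146, 213 and 209 in KO naive and 4.79, 0, 5.36 and 74.1 in KO ONC, where replicate 4 was the highest (log2 fold change -4.69 ± 1.38 (SE), adjusted p = 0.0151). Kcnj8, a potassium channel of pericytes, held 338, 68.4, 65.9 and 117 and 1.2, 0, 10.7 and 57.4 (log2 fold change -4.23 ± 1.46 (SE), adjusted p = 0.0355), and Ptges, a prostaglandin E synthase, 480.1, 110.2, 111 and 277 and 0, 52.2, 25.7 and 56.5 (log2 fold change -3.58 ± 1.28 (SE), adjusted p = 0.0423). None of the 12 exceeded 563 normalized counts in a KO library (the maximum of Rps12-ps3), and 9 of the 12 lost their call in at least 1 of the 8 fits without 1 KO library. With the rod covariate only Rps12-ps3 of the 12 was called. Over all genes, falls that also held with the rod covariate and in the 8-library fit, without overlap, numbered 135.

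Markers of other blood and border cells were called in some lists and not in others, where 25.5% of all genes were called. Of 12 border macrophage genes 1, Siglec1 (log2 fold change 1.58 ± 0.34 (SE), adjusted p = 0.00171; also interferon-stimulated), was called higher and 0 lower (median -0.22). Mrc1 (-0.53), Cd163 (0.22), Pf4 (-1.04), Lyve1 (-0.98) and F13a1 (-0.18) did not pass the test. In the monocyte list of 9 measured members Ms4a4c (log2 fold change 2.60 ± 0.43 (SE), adjusted p = 0.00019) and Plac8 (2.40) were called higher and Vcan (-2.42) lower, while Ly6c2 (0.44) and Ccr2 (2.04) did not pass. The T and NK cell list summed to 0.00121, 0.0018, 0.00137 and 0.00194% in KO naive and 0.00247, 0.00173, 0.00148 and 0.0021% in KO ONC, with Klrb1c called higher (3.55, 8.98, 0, 0 and 2.55 against 7.18, 49, 52.5 and 29.6; call lost in 6 of the 8 fits), and the neutrophil list to 0.000566, 0.00121, 0.000277 and 0.001% and 0.000249, 0.000356, 0.000249 and 0.000401%. In the B cell list 2 of 3 measured members, Ighm (1.51, -0.03 relative) and Cd79b (1.35, -0.19 relative), were called higher, and in the oligodendrocyte list 2 of 5 members. Of 4 horizontal cell genes 0 were called either way (2 at an unadjusted p under 0.05 in limma).

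Whether the response to ONC depended on genotype was asked with the interaction, the log2 fold change of KO minus that of WT. It was called for 13 of 15892 genes (0.0818%), 10 with a higher and 3 with a lower value in KO, and 2032 genes had an unadjusted p under 0.05. Single libraries moved this count, which was 645 without KO naive replicate 3, 210 without WT ONC replicate 2, 42 without WT ONC replicate 3, 22 without KO ONC replicate 4 and 3 to 8 without any 1 of the other libraries. Across genes, KO and WT changes had a Pearson r of 0.603 (n = 15892 genes, which are not independent replicates). Of the genes called in KO, 3706 (91.3%) had the same sign in WT. Genes called higher in KO had a median of 1.2 in KO and 0.65 in WT, and genes called lower -1.35 and -1.0; they were chosen in KO, so that setting them beside WT is no test. The WT medians of the lists were 1.43 for disease-associated, 0.20 for homeostatic, 2.21 for interferon response, 1.52 for MHC class I, 1.96 for chemokine and 0.75 for lysosomal genes, where KO had 2.01, 1.03, 2.30, 1.93, 2.43 and 1.5. The pan-myeloid list had a median of 0.52 in WT and 1.52 in KO.

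**Figure D4:**
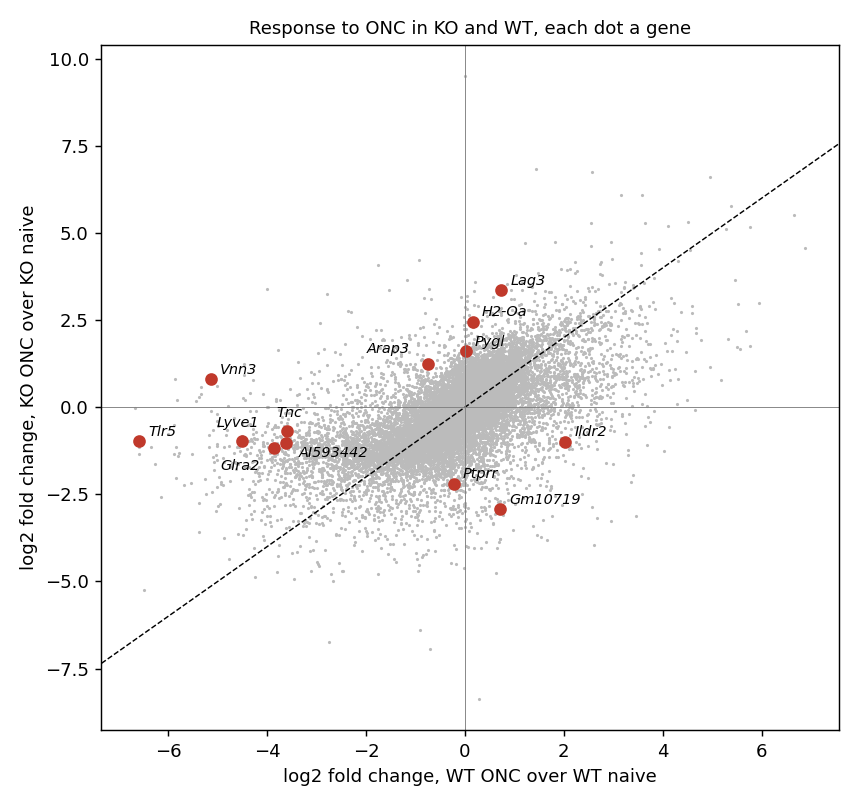
Log2 fold change after ONC in KO (vertical) against WT (horizontal) for the 15892 genes tested (grey); the 13 genes called in the interaction are red and named, and the dashed line marks equal change. Tlr5, Vnn3, Lyve1, Glra2, AI593442 and Tnc lie to the left, where the WT change is the more negative.

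Tlr5, Tnc and Lag3 were the genes called in the interaction in all 15 fits that left out 1 library. Tlr5, the flagellin receptor (chr1:182954788-182976044), held 77.6, 104, 243 and 91.8 in KO naive and 91, 158, 25.7 and 30.6 in KO ONC, with overlap. In WT it went from 132, 193, 109.8 and 91 to 1.34, 0 and 0, at or near 0 in all 3 WT ONC libraries (interaction 5.6 ± 0.82 (SE), adjusted p = 0.00822). Tnc, the matrix protein tenascin C (chr4:63959785-64047015), held 954, 1109.8, 1095 and 1379 in KO naive and 539, 423, 782 and 1312 in KO ONC, and 2262, 1937, 1639 and 2298 in WT naive and 133, 208 and 161 in WT ONC. The KO groups overlapped and the WT groups did not (log2 fold changes -0.69 and -3.60; interaction 2.91 ± 0.44 (SE), adjusted p = 0.00822). Lag3, an inhibitory receptor that binds MHC class II (chr6:124904361-124911705), held 247, 239, 524 and 197 in KO naive and 2483, 3455, 2706 and 2933 in KO ONC (log2 fold change 3.36 ± 0.27 (SE), adjusted p = 9.74e-08), and 999.6, 882, 1239.8 and 1331 in WT naive and 1242, 2145 and 2299.8 in WT ONC. The KO libraries started lower and ended higher than WT (interaction 2.62 ± 0.40 (SE), adjusted p = 0.00822). H2-Oa, a regulator of class II loading, had the same shape, at 209, 224, 469 and 172 and 1259, 1469.5, 1382 and 1336 in KO and 849.5, 721, 806 and 1023 and 913, 916 and 992 in WT (interaction 2.29 ± 0.42 (SE), adjusted p = 0.0491). Lyve1, a hyaluronan receptor of border macrophages and lymphatic vessels, held 987, 1164, 1265 and 1123 and 1209, 666, 402 and 336 in KO, but 1678, 1699, 1157 and 2314 and 25.5, 192 and 76 in WT (interaction 3.53 ± 0.68 (SE), adjusted p = 0.0498). Over the whole border macrophage list the median was -0.22 in KO and -3.58 in WT. Vnn3, a pantetheinase gene, and Glra2, a glycine receptor subunit, had WT log2 fold changes of -5.13 and -3.86 against 0.80 and -1.18 in KO (interaction 5.94 ± 1.15 (SE), adjusted p = 0.0498, and 2.68 ± 0.50 (SE), adjusted p = 0.0498). The other calls with a higher value in KO were AI593442 (2.59), Arap3 (1.98) and Pygl (1.59). Those with a lower value in KO were Gm10719 (interaction -3.64 ± 0.71 (SE), adjusted p = 0.0498), Ildr2 (interaction -3.02 ± 0.58 (SE), adjusted p = 0.0498) and Ptprr, a receptor tyrosine phosphatase. Ptprr fell in KO from 642, 529, 732 and 591 to 165, 84.8, 119 and 193, without overlap (log2 fold change -2.20 ± 0.26 (SE), adjusted p = 7.46e-06), and was at 325, 325, 357 and 416 and 411, 296 and 230.4 in WT (interaction -1.98 ± 0.38 (SE), adjusted p = 0.0498). Relative to the pan-myeloid genes 0 genes were called in the interaction in limma (3939 at an unadjusted p under 0.05).

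**Figure D5:**
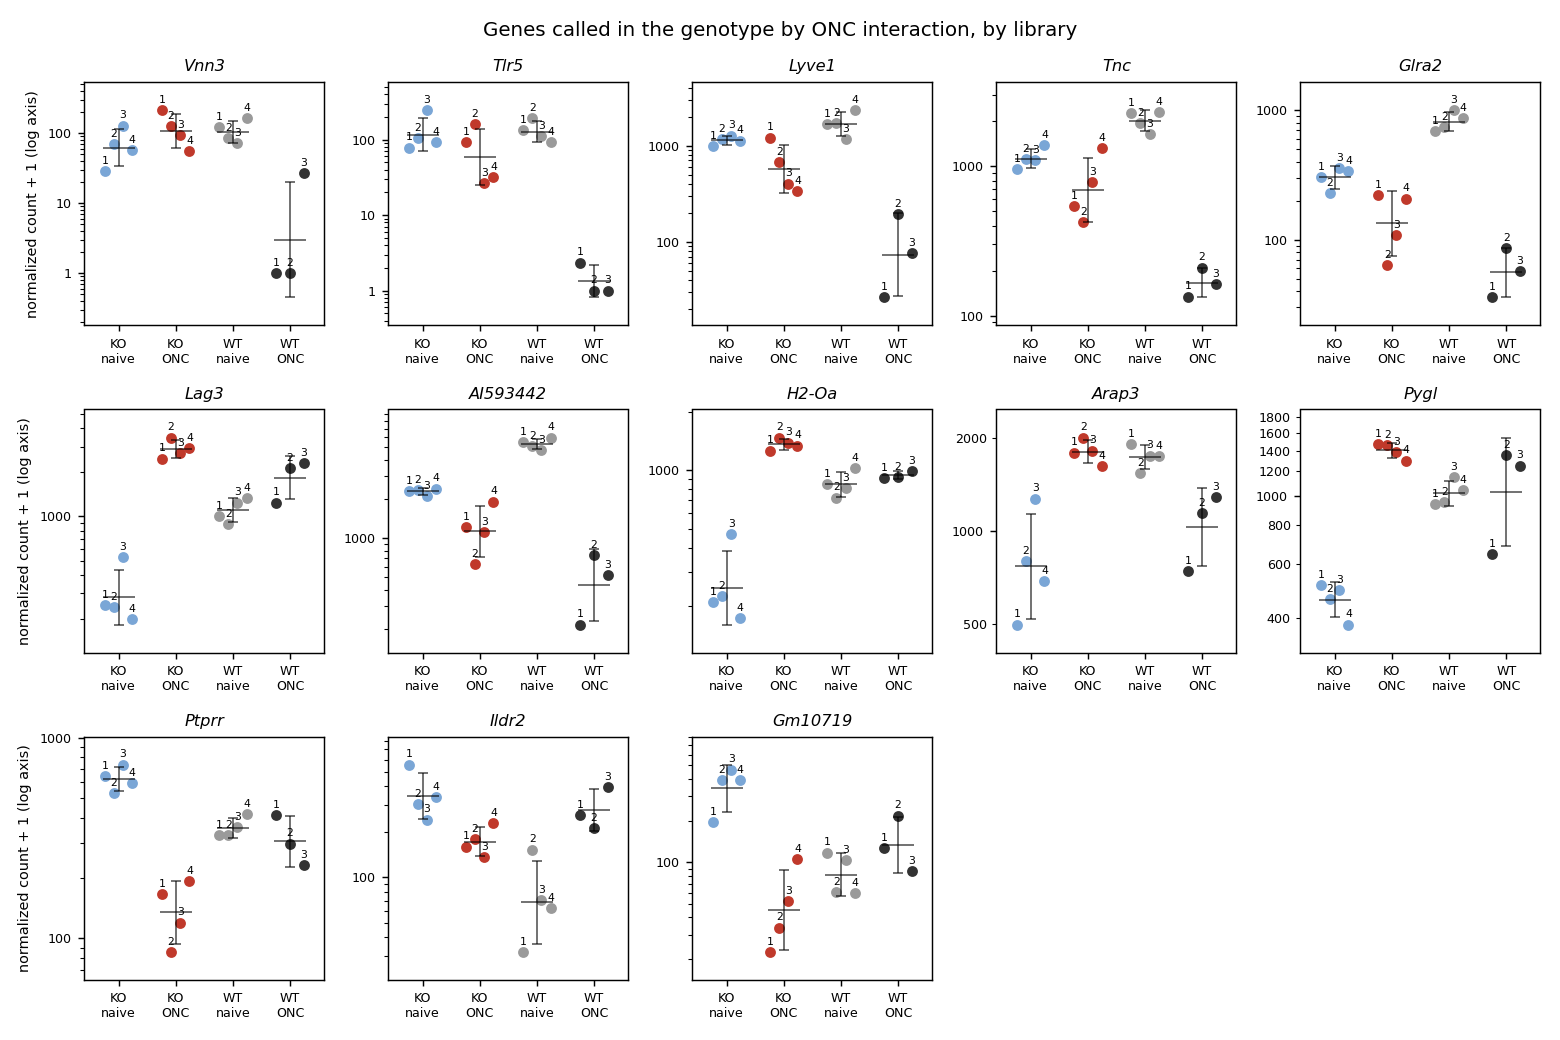
Normalized count + 1 (log axis) of the 13 genes called in the genotype by ONC interaction, in KO naive (blue), KO ONC (red), WT naive (grey) and WT ONC (black) libraries; digits are replicate numbers, the bar is the mean of log2 values and the whiskers 1 SD. In Tlr5 the WT ONC libraries lie at or near 0 and the KO ONC libraries do not, and in Lag3 and H2-Oa KO naive is the lowest of the 4 groups and KO ONC the highest.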

How the data were processed

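RNA of sorted CX3CR1-GFP+ retinal cells, pooled by the methods of the study, was sequenced. The authors deposited 1 table of normalized counts for the 23 libraries, a signal on which each library's read counts were scaled by 1 size factor. The submitters' processing notes name STAR, DESeq2 and GRCm38, the methods of the study salmon, and versions are not given in the sources used here. All columns matched a sample (0 unmatched). Values were whole multiples of 1 step per library within 0.1 reads, which gave back 22180480 to 30296094 reads per library. At this depth 3 reads, the floor for a count of 0, equalled 2.41 to 4.03 normalized counts (counting error alone).

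Genes reaching 10 normalized counts in 3 or more of the 8 KO libraries were tested on log2(normalized count + 1) with limma 3.58.1 (R 4.3.3, intensity trend), fitted to all 23 libraries in 6 groups that share 1 estimate of the spread. The 6 groups were naive, ONC and raised eye pressure in each genotype. Adjusted p-values and SEs are limma's unless another tool is named, with thresholds taken from the study. Summed marker levels were compared by a two-sided exact permutation test. Alternatives were other pseudocounts (0.5 and 5), filters and rescalings, a replicate block and the compared groups alone. Further ones were the mean log2 level of the rod genes as a covariate, edgeR 4.0.16 and DESeq2 1.42.0 on the recovered reads, and fits without 1 library. The scale relative to 19 pan-myeloid genes (6 also on a pathway list) and KO naive replicate 3 as the lone naive library were chosen after the data were seen. Scripts were tested on simulated data.

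The comparison, its members and the gene lists were chosen with earlier results of these data known. Named genes were Spp1 and Cx3cr1, the 12 largest rises and falls among called genes without overlap and with a mean of at least 100 in the higher group (pseudogenes and predicted genes aside), up to 4 called members of each list, genes the study names, and up to 5 interaction genes each way. Others, such as P2ry12, Tmem119, Cd74, Mfge8, Isg15, Gpnmb, Lag3, Rps12l1 and the list members given as not called, were named after their values were seen. Promoter windows came from RefSeq by gene symbol. Some list members are not reported here by name.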

Additional observations from a re-analysis of the deposited data

Results flagged for a closer look

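Among the groups of 4 libraries, KO naive and KO ONC, each tested for every measure (153 named genes and the summed marker shares), 1 library lay further from the others than Dixon's critical value allows in 75 cases, 19.1% of the groups, where chance gives about 5%. KO naive replicate 3 accounted for 47 of them, KO naive replicate 1 for 9 and KO ONC replicate 3 for 0. What sets these libraries apart was not tested.

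In KO naive replicate 3 the normalized count stood above the 3 other libraries of the group for Gcm2 46.5, Klrb1b 69.8, Itgax 538, Ly6i 53.3, Rab9b 303, Olfml3 49561, Lgals3bp 12479, Ifi27l2a 1733, Oas1a 1673, Cd86 6109.6, H2-DMa 9417, B2m 43461 and H2-D1 66415. The same held for Ccl5 526, Pycard 2680.4, Il1b 113, Junb 2741, Retreg1 4155, Gabarap 5339, Snap29 529, Ctsd 406169, Grn 70507, Ctsb 109697, Npc2 11229, Axl 16096 and Fcgr4 1290.3 (normalized counts). The same held for Tyrobp 26563, Hk3 2382, Irf8 16163, Osm 345, Tlr5 243, Cryba4 621, Siglec1 2772, Ms4a4c 478, Ighm 14101, Cd79b 619 and Cnp 4149.9 (normalized counts). Summed shares above those of the others came from disease-associated microglia 4.13%, MHC class I 0.924%, complement 1.62%, lysosome 6.88%, TGF-beta and identity factors 0.512%, lens 0.0194% and B cell 0.0561% (percent of the library). In KO naive replicate 3 the normalized count stood below the 3 other libraries of the group for Bdnf 108 and Pdc 9303. A summed share below those of the others came from core macroautophagy 0.237% (percent of the library).

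In KO naive replicate 1 the normalized count stood above the 3 other libraries of the group for Adgrg5 27.8, Aqp4 3839, Dkk3 42809, Pecam1 636, Pdgfrb 1631 and Vcan 775. Summed shares above those of the others came from mitochondrially encoded genes 7.35%, astrocyte 0.00817% and pericyte 0.0249% (percent of the library).

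In KO ONC replicate 1, summed shares above those of the others came from MHC class II 0.632% and core macroautophagy 0.269% (percent of the library). A summed share below those of the others came from lens 0.0057% (percent of the library).

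In KO ONC replicate 2 the normalized count stood above the 3 other libraries of the group for Cxcl13 11545, Il1rn 892 and Il1b 695. A summed share above those of the others came from disease-associated microglia 9.44% (percent of the library). In KO ONC replicate 2 the normalized count stood below the 3 other libraries of the group for Ccnb2 360.

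In KO ONC replicate 4 the normalized count stood above the 3 other libraries of the group for Trarg1 74.1, Fras1 112, Pla2g6 644, Dkk3 14614, Rpe65 853, Ttr 1996 and Rgr 8874. A summed share above those of the others came from pigment epithelium 0.0856% (percent of the library). In KO ONC replicate 4 the normalized count stood below the 3 other libraries of the group for Itgb1 5764 and Ms4a4c 694. A summed share below those of the others came from pan-myeloid 2.5% (percent of the library).

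The response to ONC differed between genotypes by the interaction test in 13 genes. The log2 differences of KO minus WT were Glra2 2.68, Vnn3 5.94, Pygl 1.59, H2-Oa 2.29, Arap3 1.98, Tnc 2.91, Lag3 2.62, Lyve1 3.53, AI593442 2.59, Tlr5 5.6 for the genes with a higher value in KO and Ptprr -1.98, Ildr2 -3.02, Gm10719 -3.64 for those with a lower value. The calls of Tlr5, Tnc and Lag3 (adjusted p = 0.00822 in limma) held in all 15 fits without 1 library, whereas the others had adjusted p-values of 0.0445 to 0.0498 and were lost in most of these fits.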

How the results depend on the processing

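The 4057 calls of KO ONC against KO naive became 492 with the rod covariate (332 higher, 160 lower), 11611 relative to the pan-myeloid genes (152 and 11459), which moved the median of all genes by -1.54 on the log2 scale, and 86 with replicate 3 as the lone naive library (71 and 15). Every other setting stayed within 1.5 times, fits without 1 library giving 2881 to 5080 and edgeR 3561. The 13 interaction calls were less stable. They became 6 with a pseudocount of 0.5, 6 with no filter, 62 after quantile normalization, 7 with the compared groups alone, 178 with the rod covariate, 2 in edgeR, 260 in DESeq2, 0 relative to the pan-myeloid genes in limma (3939 at an unadjusted p under 0.05) and 8 with replicate 3 as the lone naive library. Fits without 1 library gave 3 to 645, the counts above 13 coming from the 4 libraries named beside the interaction. The causes were not tested. With a replicate block 4005 genes and 7 interaction genes were called. The correlations of the deviations of same-numbered libraries were 0.188, -0.0801, 0.122 and 0.167, so the numbers were not taken to pair the samples. Named genes with a positive log2 fold change on the deposited scale and a negative one relative to the pan-myeloid genes included Cx3cr1 (-1.12), H2-Ob (-0.040), H2-DMa (-0.15), Nfkbiz (-0.13), Junb (-0.33), Retreg1 (-0.54), Ncoa4 (-0.94), Gabarap (-0.10), Vamp8 (-0.11), Snap29 (-0.46), Becn1 (-0.56), Hk3 (-0.32), Itgb5 (-0.069), Itga5 (-0.65), Cd44 (-0.73), Osm (-0.13), Sqstm1 (-1.30), Syk (-0.12), Vnn3 (-0.74), Ighm (-0.033), Cd79b (-0.19), Cnp (-0.36), P2ry12 (-1.08), Tmem119 (-1.14) and Arap3 (-0.31). Against replicate 3 alone the sign of the called gene Cd44 (-0.066) turned, as did those of uncalled genes such as Cx3cr1 (-0.022), Wdfy3 (0.35), Optn (0.97), Ptgs2 (-0.32), Vnn3 (-0.24), P2ry12 (-0.81) and Tmem119 (-0.85). Calls of genes named in the text that were lost in 4 or more of the 8 fits without 1 KO library were Spp1, Kcnj8, Pcdha8, Mal, Epb41l4b, Ptges, Boc, Bub1, Ikbke, Nfkbiz, Ncoa4, Cd44, Vegfa, Osm, Pou4f1, Vcan, Klrb1c, Selplg, Sc5d, Slc17a6. Of 141 called named genes, 112 were also called in edgeR and 48 with the rod covariate.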

Other observations

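Siglecf and Cd52, chosen after their values were seen, are the remaining genes described. Siglecf, a sialic acid-binding receptor, held 282, 236, 563 and 401 normalized counts in KO naive and 2877, 3672, 2805 and 2726 in KO ONC, without overlap (log2 fold change 3.10 ± 0.34 (SE), adjusted p = 3.88e-06 in limma, 1.55 relative to the pan-myeloid genes). In WT it held 1166, 641, 687 and 1022 and 3883, 2780.2 and 4255. Cd52, a small surface glycopeptide of leukocytes, held 1190.3, 1243, 3681 and 1445 in KO naive and 13198, 18267, 15889 and 11646 in KO ONC (log2 fold change 3.12 ± 0.34 (SE), adjusted p = 3.96e-06 in limma, 1.58 relative to the pan-myeloid genes). WT ONC replicate 1 was the highest WT library for Cd52 (36256, 10716 and 13771 in WT ONC).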
